A study of Mus musculus with 28 samples.

Results

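Cystatins are protein inhibitors of cysteine proteases, and legumain is a protease that several of them inhibit. The genes described here are *Cst7*, *Cst3*, *Cstb* and *Lgmn*, which were taken by symbol from the count table and are 4 of its 48587 genes. They were selected on their measured levels and differences between groups in earlier results of the same 28 libraries, and the rule names them without a threshold. Their levels and differences are therefore given as a description, no p-value of theirs is printed, and tests are given for other genes of the lysosomal protease system.

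Each library holds RNA of FACS-sorted CD11b+CD45low hippocampal microglia from 1 male mouse aged 16 weeks. 5xFAD mice are heterozygous for transgenes of human APP, with the Swedish, Florida and London mutations, and of mutant human PS1, both driven by the neuron-specific Thy-1 promoter on a C57BL/6J background. Non-transgenic littermates served as wild-type (WT) mice. SPF mice (5 WT and 3 5xFAD) carried a microbiota free of specified pathogens, and ABX mice (5 WT and 6 5xFAD) were SPF mice given vancomycin, cefoxitin, gentamicin and metronidazole in the drinking water for 8 weeks. GF mice (4 WT and 5 5xFAD) were germ-free mice derived by embryo transfer and came from a different facility than the other groups, so that a germ-free state and the facility of origin cannot be told apart. The comparisons ask how the 5xFAD genotype and the absence or depletion of the microbiota go with the levels of these genes in microglia.

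Cystatins bind the active site of papain-like proteases, the cysteine cathepsins, which degrade proteins in lysosomes. *Cst3* encodes cystatin C, a secreted inhibitor. *Cst7* encodes cystatin F, which is sorted to lysosomes and is a known marker of microglia around amyloid plaques. *Cstb* encodes cystatin B, which acts in the cytosol and nucleus. *Lgmn* encodes legumain, also called asparagine endopeptidase, which cleaves after asparagine and processes cathepsins into their mature forms. Cystatins C and F can inhibit legumain through a site apart from the one that binds cathepsins.

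The libraries held between 14441610 and 29977395 reads counted on genes, and CPM values refer to library sizes scaled by TMM. All 8 microglia markers had reads in every group, with sums from 54202 to 64080 CPM in WT and from 47219 to 56848 CPM in 5xFAD mice, and 3, 5 and 4 of them were lower in 5xFAD than in WT mice under SPF, GF and ABX conditions (edgeR, adjusted p under 0.05). Mouse FAD_GF_201 is a 5xFAD mouse by its title and genotype label and a WT mouse by its description. It was used as a GF 5xFAD mouse, and the *Cst7* and *Cstb* differences are also given without it. The descriptions of the libraries follow 3 forms, and no source used here says what they stand for. A number in the 900s was given to all SPF WT and ABX WT mice, a number above 1000 to the 3 SPF 5xFAD mice and mouse FAD_ABX_1151, and group letters to every GF mouse and to 5 ABX 5xFAD mice. No form is shared between 5xFAD and WT mice under SPF or ABX conditions, between GF and SPF mice of either genotype, or between GF and ABX WT mice, so the form and the group cannot be told apart in these comparisons. Of the ABX and SPF 5xFAD mice, mouse FAD_ABX_1151 alone shares the form of the SPF mice. The CD45low gate was combined with the exclusion of Ly6G+ and Ly6C+ cells. Neutrophil markers nevertheless summed to 56.1 to 225.6 CPM in the 4 libraries with a number above 1000, and to at most 0.784 CPM in the other 24 libraries. In these bulk libraries, fewer cells that express a gene and less RNA of it per cell cannot be told apart.

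*Cst7* and *Cst3* lie on the same chromosome of GRCm38. *Cst7* occupies chr2:150570415-150578944 on the plus strand with 986 exonic bases, and *Cst3* occupies chr2:148871722-148875692 on the minus strand with 1266 exonic bases. The gap between them is 1694722 bases. *Cstb* lies at chr10:78425670-78427619 on the plus strand with 599 exonic bases, and *Lgmn* at chr12:102394084-102439813 on the minus strand with 2323 exonic bases. No annotated gene overlaps any of the 4 genes. Promoter windows of 250 bases before the start, from RefSeq on GRCm38.p6, were listed for *Cst7*, *Cst3* and *Lgmn*. They are shown for *Cst7*, whose level differed most between the genotypes, and for the second start of *Lgmn*, because each holds 1 of the motifs searched. The windows of *Cst3* and of the first *Lgmn* start hold 125 and 85 bases of annotated exons and are not printed. The *Cst7* window is chr2:150570165-150570414 on the plus strand, and the *Lgmn* window is chr12:102439093-102439342 on the minus strand, inside an intron of the longer *Lgmn* transcripts. Capitals mark the motif matches, and both sequences read 5′ to 3′ towards the start.
Cst7: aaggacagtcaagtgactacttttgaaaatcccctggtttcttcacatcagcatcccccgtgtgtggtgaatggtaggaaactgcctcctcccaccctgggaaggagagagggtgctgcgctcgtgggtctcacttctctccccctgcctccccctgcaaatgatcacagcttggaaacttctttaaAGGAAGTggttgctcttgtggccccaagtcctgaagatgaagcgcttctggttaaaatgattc
Lgmn, second start: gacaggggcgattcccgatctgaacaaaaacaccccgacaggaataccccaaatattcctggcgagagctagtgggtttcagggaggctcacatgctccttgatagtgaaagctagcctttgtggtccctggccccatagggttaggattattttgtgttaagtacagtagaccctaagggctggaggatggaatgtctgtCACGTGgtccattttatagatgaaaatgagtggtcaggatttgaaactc
The motifs searched on both strands were CACGTG, the E-box at the core of the lysosomal CLEAR element, AGGAAGT, a PU.1 motif, and TGANTCA, an AP-1 motif. *Cst7* holds AGGAAGT, which starts 63 bases before the start of the gene, and 7.69% of all 32851 listed promoters hold a match to it. The second *Lgmn* window holds CACGTG at 49 bases before the start, as do 6.02% of all promoters. AP-1 letters are found in 6.75% of all promoters and in none of the 4 windows, and the other windows hold none of the 3 motifs. Such a match describes the letters and is no measured binding site.

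*Cst7* had few reads in WT microglia and was among the more abundant transcripts in 5xFAD microglia. SPF WT mice had 7.83, 5.91, 7.65, 8.96 and 7.67 CPM, GF WT mice 6.89, 5.65, 17.0 and 9.15 CPM, and ABX WT mice 8.36, 7.93, 10.2, 8.47 and 5.96 CPM. In these 14 libraries *Cst7* held between 91 and 317 reads, and the highest value belonged to mouse WT_GF_230. SPF 5xFAD mice had 856, 616 and 621 CPM. GF 5xFAD mice had 1652, 1442, 1336, 1425 and, in mouse FAD_GF_201, 774 CPM. ABX 5xFAD mice had 532, 726, 755, 776, 673 and 532 CPM. The lowest 5xFAD library lay 31.3-fold above the highest WT library, so every 5xFAD mouse stood clear of every WT mouse in each condition. By reads, *Cst7* ranked between 7317 and 9442 among all genes in WT libraries and between 58 and 232 in 5xFAD libraries. Mouse FAD_GF_201, whose description names a WT mouse, had a *Cst7* level in the 5xFAD range.

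**Figure D1:**
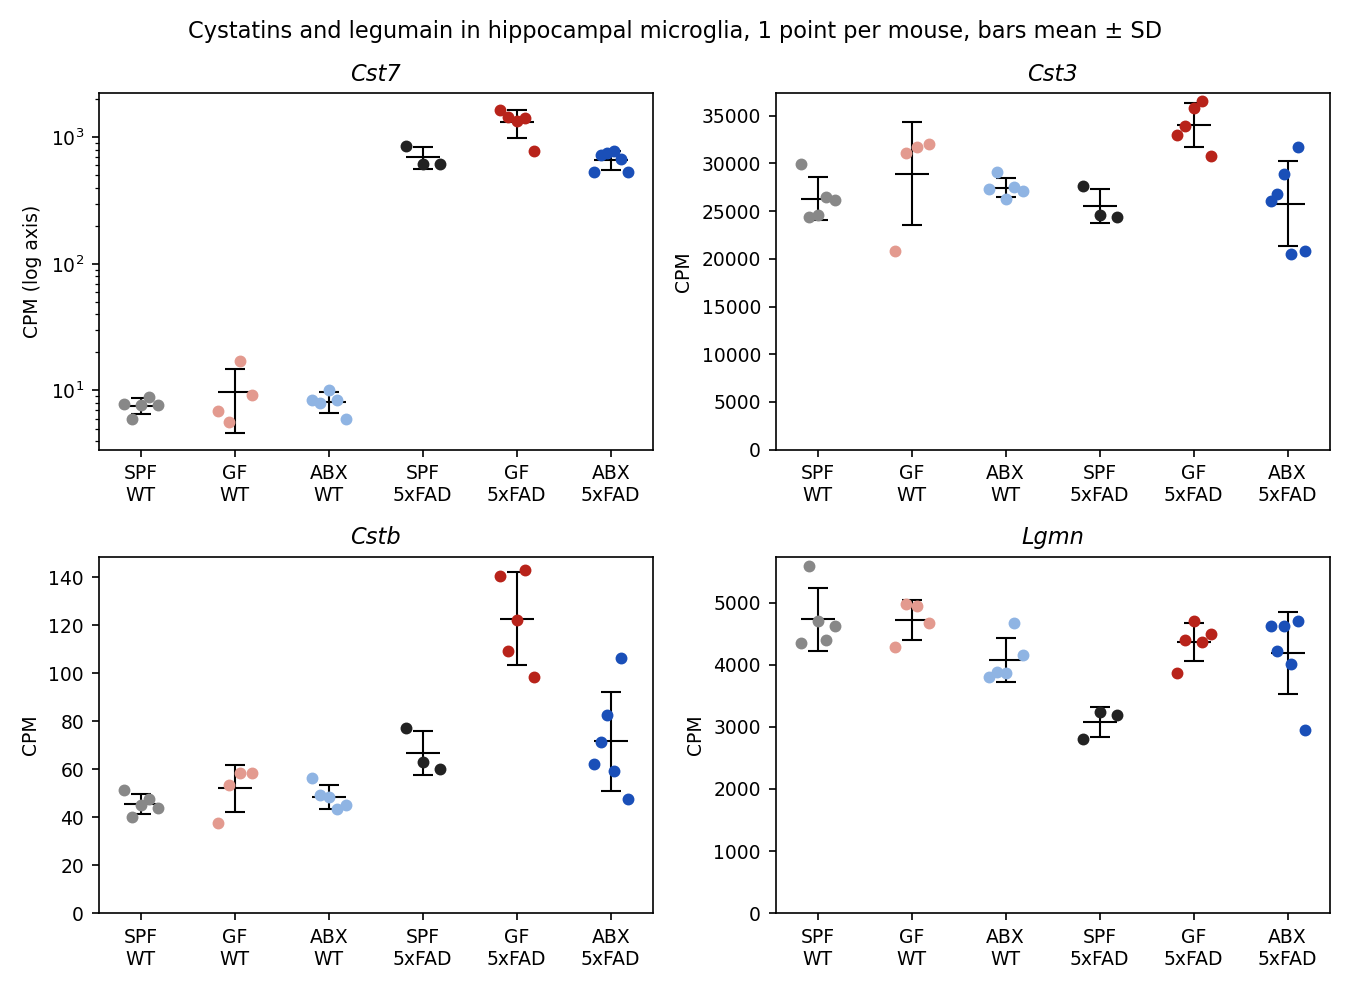
Level of each gene in CPM (TMM-scaled, vertical axes, logarithmic for *Cst7* and starting at 0 for the others) in SPF, GF and ABX WT and 5xFAD mice (horizontal axes), with 1 point per mouse and black lines for the mean ± SD. *Cst7* separates all 14 5xFAD mice from all 14 WT mice, *Cstb* is highest in GF 5xFAD mice, and *Lgmn* is lowest in SPF 5xFAD mice.

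The mean *Cst7* level was 1326 ± 329.5 CPM in GF 5xFAD mice (SD, n = 5), 697.6 ± 137.3 CPM in SPF 5xFAD mice (SD, n = 3) and 665.7 ± 109.2 CPM in ABX 5xFAD mice (SD, n = 6). It was 9.67 ± 5.1 CPM in GF WT (SD, n = 4), 8.18 ± 1.5 CPM in ABX WT (SD, n = 5) and 7.6 ± 1.09 CPM in SPF WT mice (SD, n = 5). Relative to WT mice, the log2 fold change in 5xFAD mice was 6.52 ± 0.262 (SE) under SPF, 7.10 ± 0.289 under GF and 6.36 ± 0.251 under ABX conditions, or 91.8-fold, 136.8-fold and 82-fold. Of all genes tested, 9.44% under SPF, 9.14% under GF and 4.68% under ABX conditions likewise had every 5xFAD mouse above every WT mouse. The GF value was 7.51 without mouse WT_GF_230 and 7.25 without mouse FAD_GF_201. Between GF and SPF 5xFAD mice the log2 fold change was 0.93 ± 0.233 (SE), and 4 of 5 GF mice lay above all 3 SPF mice while mouse FAD_GF_201 lay among them. Without mouse FAD_GF_201 it was 1.06, and over 36 alternative settings it ranged from 0.83 to 1.10. ABX and SPF 5xFAD mice overlapped, with a log2 fold change of -0.07 ± 0.218 (SE) that was 0.10 without mouse FAD_SPF_1144 and -0.16 without mouse FAD_SPF_1146. ABX against GF 5xFAD mice gave -0.99 ± 0.187 (SE), where mouse FAD_GF_201 lay just under the highest ABX mouse, and -1.14 without that mouse. Among WT mice, the ranges of the housing conditions overlapped, with log2 fold changes of 0.35 ± 0.24 (SE) between GF and SPF, 0.10 ± 0.229 between ABX and SPF and -0.26 ± 0.242 between ABX and GF mice. The first and the last of these became -0.07 and 0.17 without mouse WT_GF_230. The order of the genotypes thus held in every mouse, whereas SPF and ABX mice of the same genotype overlapped.

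*Cst3* had the most reads of any gene in 27 of 28 libraries and the highest TPM (a level per exon length that sums to the same total in each library) in all 28 libraries. It held between 1.93 and 3.36% of all reads. SPF WT mice had 29916, 24353, 24618, 26510 and 26163 CPM, and ABX WT mice 27320, 29120, 26305, 27500 and 27130 CPM. GF WT mice had 20862, 31088, 31706 and 32080 CPM, the first of these in mouse WT_GF_199, which lay well below the other GF WT mice. SPF 5xFAD mice had 27605, 24546 and 24400 CPM, and their range fell within that of SPF WT mice. GF 5xFAD mice had 32964, 33954, 35813, 36526 and 30817 CPM. ABX 5xFAD mice had a lowest value of 20469, a median of 26377 and a highest value of 31722 CPM. Every GF 5xFAD mouse lay above every SPF 5xFAD mouse, as was the case for 10.4% of all genes tested, and 1 GF 5xFAD mouse, FAD_GF_201, lay below the highest ABX 5xFAD mouse.

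Group means of *Cst3* ran from 34014.5 ± 2284 CPM in GF 5xFAD mice (SD, n = 5) over 28934 ± 5397 in GF WT (n = 4), 27475 ± 1027 in ABX WT (n = 5), 26312 ± 2222 in SPF WT (n = 5) and 25774 ± 4452 in ABX 5xFAD mice (n = 6) to 25517 ± 1810 CPM in SPF 5xFAD mice (n = 3). The ranges of all neighbours in this order overlapped. Set against WT mice, 5xFAD mice had log2 fold changes of -0.04 ± 0.118 (SE) under SPF, 0.23 ± 0.109 under GF and -0.09 ± 0.0976 under ABX conditions, and the GF value was 0.10 without mouse WT_GF_199. GF against SPF 5xFAD mice gave 0.41 ± 0.119 (SE), with a range of 0.32 to 0.47 over the alternatives, and ABX against SPF 5xFAD mice gave 0.01 ± 0.114. In WT mice, GF against SPF gave 0.14 ± 0.108 (SE), which was 0.27 without mouse WT_GF_199. The most abundant cystatin thus differed by at most 1.33-fold between any pair of groups compared, while *Cst7* differed by 82-fold or more between the genotypes.

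*Cstb* was highest in GF 5xFAD mice. SPF WT mice had 51.2, 40.1, 44.9, 47.5 and 43.7 CPM, GF WT mice 37.7, 53.6, 58.5 and 58.3 CPM, and ABX WT mice 56.3, 49.1, 48.2, 43.3 and 45.1 CPM. SPF 5xFAD mice had 77.3, 62.9 and 59.9 CPM, each above every SPF WT mouse, as for 9.44% of all genes tested. GF 5xFAD mice had 140.5, 109.4, 122.1, 143.1 and 98.4 CPM, and the lowest of them, FAD_GF_201, still lay above every SPF 5xFAD mouse (10.4% of all genes tested) and every GF WT mouse (9.14% of all genes tested). ABX 5xFAD mice spread widely, with 62.2, 71.5, 82.6, 59.3, 106.1 and 47.5 CPM. The last value came from mouse FAD_ABX_1151, the only ABX 5xFAD mouse within the ABX WT range, and the highest from mouse FAD_ABX_1482, which overlapped the GF 5xFAD mice.

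The mean of *Cstb* was 122.7 ± 19.4 CPM in GF 5xFAD (SD, n = 5), 71.55 ± 20.6 CPM in ABX 5xFAD (SD, n = 6) and 66.7 ± 9.31 CPM in SPF 5xFAD mice (SD, n = 3). WT means were 52 ± 9.8 CPM in GF (SD, n = 4), 48.4 ± 4.99 CPM in ABX (SD, n = 5) and 45.5 ± 4.16 CPM in SPF mice (SD, n = 5). Against WT mice, the 5xFAD groups had log2 fold changes of 0.55 ± 0.179 (SE) under SPF, 1.24 ± 0.171 under GF and 0.56 ± 0.152 under ABX conditions. Under ABX conditions it was 0.66 without mouse FAD_ABX_1151 and 0.42 without mouse FAD_ABX_1482. GF against SPF 5xFAD mice gave 0.88 ± 0.186 (SE), ABX against GF 5xFAD mice -0.78 ± 0.149, and ABX against SPF 5xFAD mice 0.10 ± 0.176. Without mouse FAD_GF_201 the first and the second of these were 0.94 and -0.85, and the difference of GF 5xFAD from GF WT mice was 1.32. Between ABX and SPF 5xFAD mice it was -0.04 without mouse FAD_ABX_1482 and 0.22 without mouse FAD_SPF_1144. The comparisons between WT groups had log2 fold changes between -0.10 and 0.19, with SEs of 0.158 to 0.167. Without mouse WT_GF_199 they were 0.32 for GF against SPF and -0.23 for ABX against GF WT mice. The difference between the 5xFAD effects of GF and SPF mice was 0.69 ± 0.248 on the log2 scale (SE), beside 0.58 ± 0.332 for *Cst7* and 0.28 ± 0.16 for *Cst3*. The *Cst7* value was 0.98 without mouse WT_GF_230, and the *Cst3* value was 0.15 without mouse WT_GF_199.

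*Lgmn* was abundant in all groups and lowest in SPF 5xFAD mice. By mouse, SPF WT microglia had 4344, 5596, 4699, 4395 and 4618 CPM, GF WT mice 4285, 4974, 4950 and 4667 CPM, and ABX WT mice 3810, 3890, 3870, 4671 and 4160.5 CPM. SPF 5xFAD mice had 2807, 3243 and 3190.4 CPM, each below every SPF WT mouse. GF 5xFAD mice had 3870, 4401, 4697, 4365 and 4502 CPM, within the CPM range set by the WT groups. ABX 5xFAD mice had 4621, 4225, 4627, 4011, 4704.5 and, in mouse FAD_ABX_1151, 2947 CPM. In CPM the 4 lowest libraries of all 28 were thus the 3 SPF 5xFAD mice and mouse FAD_ABX_1151, and no other library fell below 3809.7 CPM. TPM values sum to the same total in each library and carry no TMM scaling, unlike the CPM values. In TPM, mouse FAD_GF_181 with 4265 lay below mice FAD_SPF_1148 and FAD_SPF_1146, which had 4310.1 and 4391. The 4 libraries lowest in CPM were thus not the lowest 4 in TPM.

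Mean *Lgmn* levels were 4730 ± 506 CPM in SPF WT (SD, n = 5), 4719 ± 321 in GF WT (n = 4), 4367 ± 306 in GF 5xFAD (n = 5), 4189 ± 666 in ABX 5xFAD (n = 6), 4080.3 ± 357 in ABX WT (n = 5) and 3080.1 ± 238 CPM in SPF 5xFAD mice (n = 3). Only the last step in this order separated ranges that did not overlap. Under SPF conditions 5xFAD mice differed from WT mice by a log2 fold change of -0.62 ± 0.111 (SE), and 7.5% of all genes tested likewise had every 5xFAD mouse below every WT mouse. The log2 fold change was -0.11 ± 0.0996 under GF and 0.04 ± 0.0901 under ABX conditions. Relative to SPF 5xFAD mice, *Lgmn* was higher by 0.50 ± 0.11 in GF and by 0.44 ± 0.107 in ABX 5xFAD mice (log2 ± SE), and ABX against GF 5xFAD mice gave -0.06 ± 0.09. Over the alternatives, the value of -0.62 ranged from -0.66 to -0.55 and that of -0.11 from -0.24 under library-size scaling to -0.06 without mouse FAD_GF_181. The difference between the 5xFAD effects was 0.51 ± 0.148 for GF and 0.66 ± 0.142 for ABX relative to SPF mice (log2 ± SE), and 0.15 ± 0.134 for ABX relative to GF mice. Without mouse FAD_ABX_1151 the last of these was 0.24, the ABX genotype difference 0.12 in place of 0.04, and ABX against GF 5xFAD mice 0.03 in place of -0.06.

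The 4 libraries lowest in *Lgmn* CPM were the libraries whose descriptions hold a number above 1000, and they were also the 4 libraries with neutrophil markers. In mouse FAD_ABX_1151 the neutrophil markers summed to 114.8 CPM at 2947 CPM of *Lgmn*, whereas the other 5 ABX 5xFAD mice had sums of at most 0.784 CPM at 4011 to 4704.5 CPM of *Lgmn*. Of the 7 neutrophil markers, 6 had reads in SPF 5xFAD mice and *Mmp8* had none there, while 6 of 7 were at 0 in each WT group. The difference in *Lgmn* between SPF 5xFAD and SPF WT mice cannot be told apart from the form of the descriptions, and the part of neutrophil transcripts or of the form in it was not tested. The same limit holds for GF against SPF 5xFAD mice, and for the differences of GF and of ABX from SPF effects. Of the ABX 5xFAD mice, only FAD_ABX_1151 shares the form of the SPF 5xFAD mice, and it lay within their range of 2807 to 3243 CPM. Within the libraries described by group letters, *Lgmn* had a mean of 4367 CPM in GF 5xFAD, 4438 CPM in 5 ABX 5xFAD and 4719 CPM in GF WT mice. In the same libraries the mean of *Cst7* was 692.3 CPM in 5 ABX 5xFAD mice and 1326 CPM in GF 5xFAD mice, and that of *Cstb* 76.35 and 122.7 CPM.

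**Figure D2:**
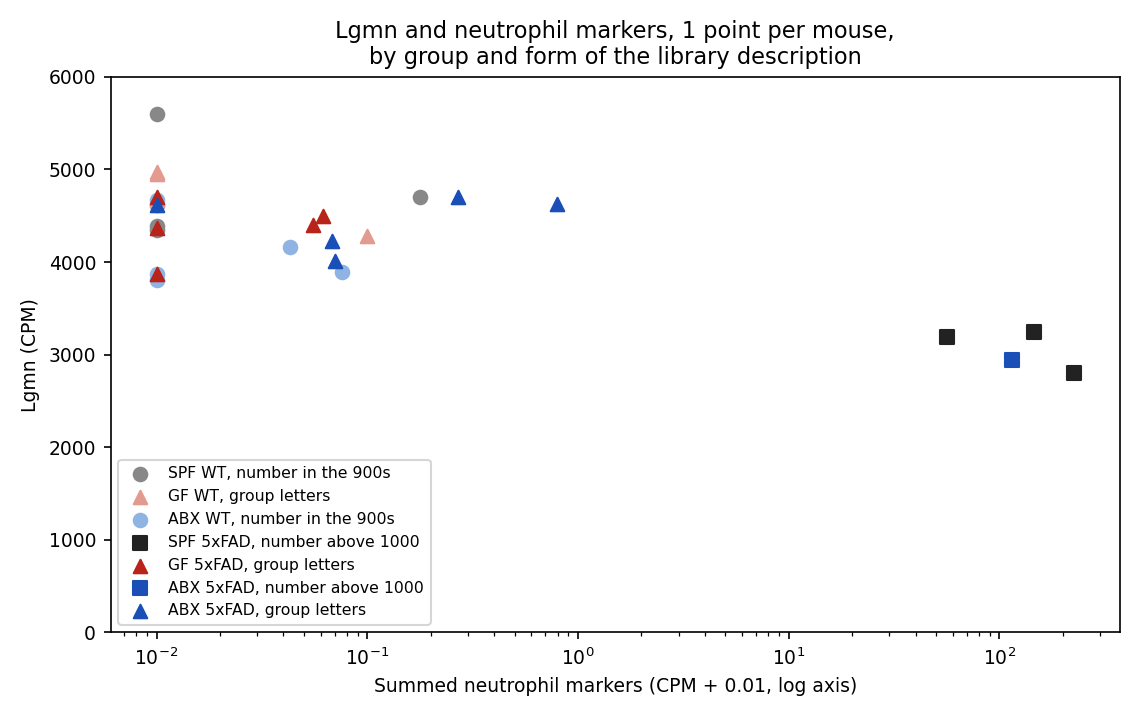
*Lgmn* level in CPM (vertical axis) against the summed CPM of 7 neutrophil markers plus 0.01 (horizontal axis, logarithmic), with 1 point per mouse, colours for groups and marker shapes for the form of the library description. The 4 libraries with a number above 1000 sit at 2807 to 3243 CPM of *Lgmn* and 56.1 to 225.6 CPM of neutrophil markers, and all others sit at or above 3809.7 CPM of *Lgmn* and below 1 CPM of neutrophil markers.

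Markers of border-associated macrophages, which share lysosomal genes with microglia, also differed between groups. Their 8 genes summed to 3.38 to 7.71 CPM in SPF WT, 3.57 to 5.83 in ABX WT, 10.6 to 43.8 in GF WT, 16.95 to 29.8 in SPF 5xFAD, 10.8 to 85.9 in GF 5xFAD and 34.1 to 264.1 CPM in ABX 5xFAD mice. *Cd163*, *Lyve1* and *Cd209f* were at 0 in SPF WT and ABX WT mice. Sums of 5 monocyte markers ran from 3.61 to 16.6 CPM in WT mice, from 15.9 to 39.8 CPM in SPF 5xFAD, from 6.57 to 26.9 CPM in GF 5xFAD and from 14.4 to 52.6 CPM in ABX 5xFAD mice, and *Ly6c2* was at 0 in every WT group and in GF 5xFAD mice. The part of either kind of cell in the levels of the 4 genes was not tested.

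**Figure D3:**
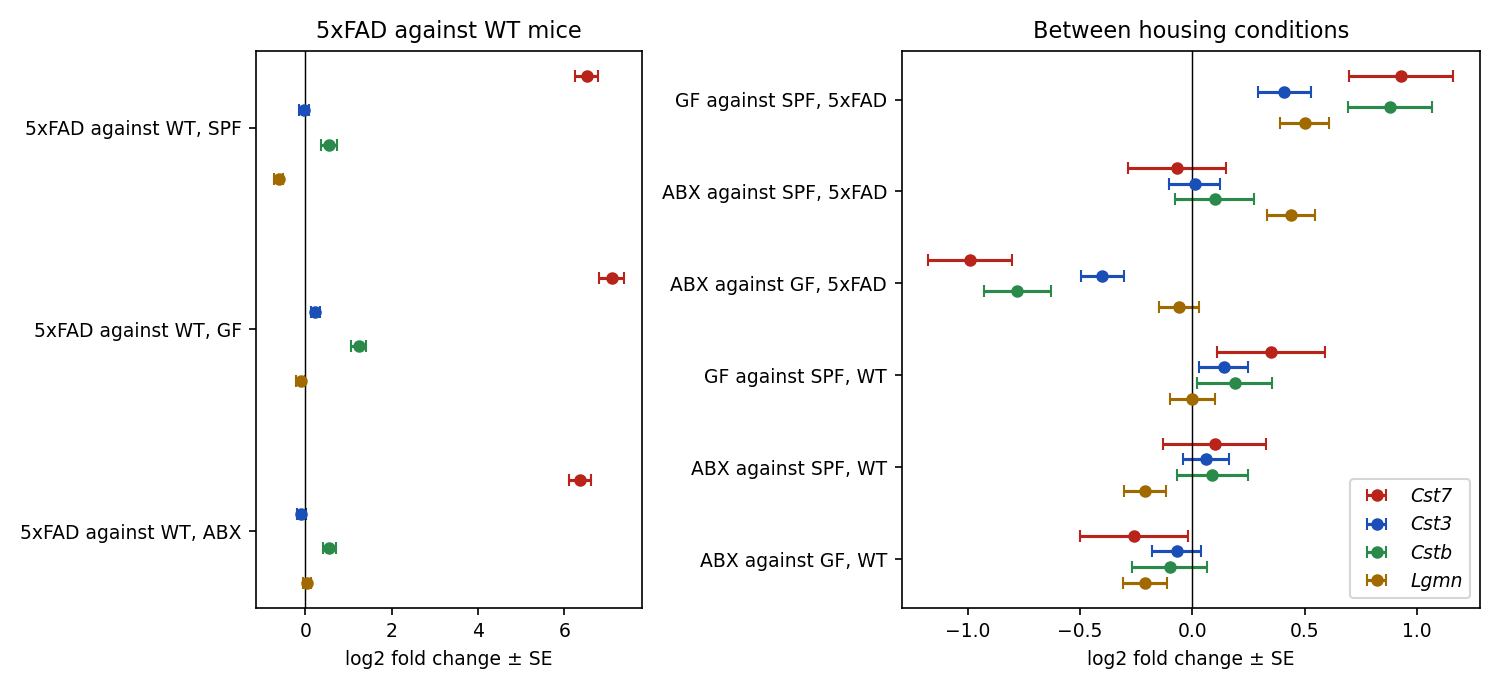
Log2 fold changes ± SE from the fit of all genes (horizontal axes) for *Cst7*, *Cst3*, *Cstb* and *Lgmn* in the comparisons of genotype (left) and of housing (right), on separate scales. *Cst7* lies above 6 in each genotype comparison, and GF against SPF 5xFAD mice is the only housing comparison in which all 4 genes lie above 0.4.

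Set beside the calls over all genes, 2 of the 4 genes had adjusted p-values under 0.05 for 5xFAD against WT mice under SPF (*Cst7* and *Lgmn*, beside 4.57% of all genes tested), 2 under GF (*Cst7* and *Cstb*, beside 15.6%) and 2 under ABX conditions (*Cst7* and *Cstb*, beside 14.4%). For GF against SPF 5xFAD mice the count was 4, beside 12.8%, and for ABX against GF 5xFAD mice it was 3, all but *Lgmn*, beside 10.6%. No member passed between WT groups, beside 1.62% of genes for GF against SPF and 6.88% for ABX against GF mice. As the genes were chosen with these results known, nothing is read from their counts. The count was also 0 for the differences between 5xFAD effects, beside 1.76% of genes for ABX relative to GF mice. For GF and for ABX relative to SPF mice, 0 of all genes tested were called. Between ABX and SPF 5xFAD mice edgeR called none of the 15298 genes, whereas limma's voomWithQualityWeights called 134 and DESeq2 called 8, and edgeR gave 1085 genes an unadjusted p-value under 0.05. The median log2 fold change of the 4 genes was 0.25 under SPF, 0.74 under GF and 0.30 under ABX conditions for 5xFAD against WT mice, beside -0.03, -0.03 and -0.01 over all genes tested.

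The other members of the cystatin superfamily were nearly silent in these microglia. Of 24 listed genes 21 were in the table, and 20 of these had at most 20 reads in any library. *Kng2*, a kininogen, was the exception with 542 reads in 27 libraries and at most 50 reads in any of them, and it passed the test in none of the comparisons (for 5xFAD against WT mice, adjusted p = 0.807 under SPF, 0.269 under GF, edgeR). *Cst6*, the gene of the legumain inhibitor cystatin E/M, had 10 reads in all 28 libraries together.

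On a scale per exon length, *Cst3* had a mean between 60564 TPM in ABX 5xFAD and 71292 TPM in GF WT mice, and *Lgmn* between 4067 TPM in SPF 5xFAD and 6612 TPM in SPF WT mice. The 2 scales ordered GF mice differently for *Cst3*, whose mean was 69927 TPM in GF 5xFAD and 71292 TPM in GF WT mice, although its CPM was higher in GF 5xFAD mice. For *Lgmn* the GF means were 4905 TPM in 5xFAD and 6356 TPM in WT mice, beside 4367 and 4719 CPM. The TPM values reached at most 5406 in GF 5xFAD and at least 6083.5 in GF WT mice, although their CPM ranges overlapped. How many of all genes separate these groups in TPM was not computed, so nothing is read from this separation. The mean of *Lgmn* was lowest in SPF 5xFAD mice on both scales, but their TPM range of 3501 to 4391 overlapped that of GF 5xFAD mice, which began at 4265. *Cst7* went from 25.1 TPM in SPF WT to 2152 TPM in SPF 5xFAD, from 30.5 to 3481 TPM in GF and from 26.9 to 2013 TPM in ABX mice. *Cstb* had means of 246 to 271 TPM in WT and 339 to 532 TPM in 5xFAD groups. Of the summed TPM of the 3 cystatins, *Cst7* made up 0.037 to 0.0426% in the WT groups, 3.35 ± 0.394% under SPF (SD, n = 3), 4.7 ± 1.05% under GF (SD, n = 5) and 3.26 ± 0.743% under ABX conditions (SD, n = 6) in 5xFAD mice. In 5xFAD mice *Cst7* thus had a higher level per length than *Cstb*, and in WT mice a lower one.

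The cysteine cathepsins are the proteases that cystatins inhibit, and 9 of the 10 listed genes had enough reads to be tested. In 5xFAD against WT mice 3 rose under SPF, 6 under GF and 6 under ABX conditions, and none fell (edgeR, adjusted p under 0.05). The shares of all genes called in either direction were 4.57%, 15.6% and 14.4% in these comparisons. *Ctsb*, which encodes cathepsin B, went from 3423 ± 289 CPM in SPF WT (SD, n = 5) to 8655 ± 835 CPM in SPF 5xFAD mice (SD, n = 3), which is 1.34 ± 0.124 on the log2 scale (SE, edgeR adjusted p = 6.16e-09). *Ctsz* rose by 0.97 ± 0.108 (adjusted p = 2.18e-07) and *Ctsl* by 0.87 ± 0.116 (adjusted p = 5.46e-06) in the same comparison. In GF mice *Ctsw* rose by 1.93 ± 0.491 (adjusted p = 0.00632), although at a mean of only 4.58 CPM in 5xFAD mice, *Ctsb* by 1.62 ± 0.122 (adjusted p = 5.12e-11) and *Ctsz* by 1.37 ± 0.105 (adjusted p = 6.37e-11). In ABX mice *Ctsb* rose by 1.22 ± 0.108 (adjusted p = 1.69e-09), *Ctsz* by 1.07 ± 0.0936 (adjusted p = 1.24e-09) and *Ctsl* by 0.94 ± 0.0997 (adjusted p = 4.55e-08). The median log2 fold change of the 9 cathepsins was 0.22, 0.61 and 0.28 in the 3 conditions, beside -0.03, -0.03 and -0.01 over all genes.

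*Ctss*, which encodes cathepsin S, was the most abundant cysteine cathepsin per length. It had 7464 ± 554 CPM in SPF WT (SD, n = 5) and 8691 ± 856 CPM in SPF 5xFAD mice (SD, n = 3), which did not pass the test (0.22 ± 0.0894, adjusted p = 0.212). It rose by 0.58 ± 0.0835 in GF (adjusted p = 7.22e-06) and by 0.28 ± 0.0748 in ABX 5xFAD mice (adjusted p = 0.0109), the last with an adjusted p of 0.0534 under library-size scaling, the only alternative of 36 without the call. *Ctsc*, the gene of cathepsin C, a protease that cystatin F inhibits, had 1020 ± 52.1 CPM in SPF WT (SD, n = 5) and 1053 ± 78.1 CPM in SPF 5xFAD mice (SD, n = 3). Its adjusted p-values were 0.923 under SPF, 0.0634 under GF and 0.371 under ABX conditions (edgeR), and the GF value was under 0.05 in 6 of 36 alternatives, with a lowest adjusted p of 0.0289. *Ctsf* at 455 CPM and *Ctso* at 271 CPM in SPF WT mice had log2 fold changes of 0.02 and -0.19 under SPF conditions, neither of which passed the test, and *Ctsh* at 886 CPM had 0.1. *Ctsf* passed under ABX conditions (0.25 ± 0.0793, adjusted p = 0.0352) in 29 of 36 alternatives as well, and its adjusted p reached 0.139 when only the compared groups were fitted.

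Between GF and SPF 5xFAD mice, 4 of 9 cysteine cathepsins were higher in GF mice, beside 12.8% of all genes called in either direction. *Ctsz* rose by 0.61 ± 0.113 (adjusted p = 0.00166), *Ctsh* by 0.50 ± 0.1 (adjusted p = 0.00272), *Ctsl* by 0.49 ± 0.12 (adjusted p = 0.00804) and *Ctss* by 0.45 ± 0.0912 (adjusted p = 0.0028, edgeR). The *Ctsl* call held in 34 of 36 alternatives, and its adjusted p was 0.0992 without mouse FAD_SPF_1148. ABX 5xFAD mice were lower than GF 5xFAD mice in 5 of 9, beside 10.6% of all genes called in either direction. The largest differences were those of *Ctsz* with -0.60 ± 0.0913 (adjusted p = 0.000268), *Ctsl* with -0.52 ± 0.0976 (adjusted p = 0.00158) and *Ctsb* with -0.40 ± 0.105 (adjusted p = 0.0146, edgeR). When only these 2 groups were fitted, *Ctsb*, *Ctsh* and *Ctss* lost their calls, with adjusted p-values of 0.101, 0.115 and 0.0609, and 2 calls were left. None of the 9 passed between ABX and SPF 5xFAD mice, between WT groups or for a difference between 5xFAD effects. Between ABX and SPF mice of either genotype edgeR called 0 of all 15298 genes. The count over all genes was also 0 for the differences of GF and of ABX from SPF effects, so nothing about cathepsins is read from these comparisons. Elsewhere the shares were 1.62% for GF against SPF WT, 6.88% for ABX against GF WT mice and 1.76% for the difference of ABX from GF effects. For the difference between GF and SPF conditions, *Ctsh* came to 0.51 ± 0.134 (adjusted p = 0.316). The form of the descriptions also differs between SPF 5xFAD mice and the SPF WT and GF 5xFAD mice they are compared with, and the neutrophil markers of SPF 5xFAD mice move with it. Their part in the SPF values of the cathepsins was not tested. The ABX genotype comparison likewise sets libraries against each other that share no form. Border-associated macrophage markers also differed there, at 34.1 to 264.1 CPM in ABX 5xFAD and 3.57 to 5.83 CPM in ABX WT mice. The part of such cells in the cathepsin values was not tested.

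**Figure D4:**
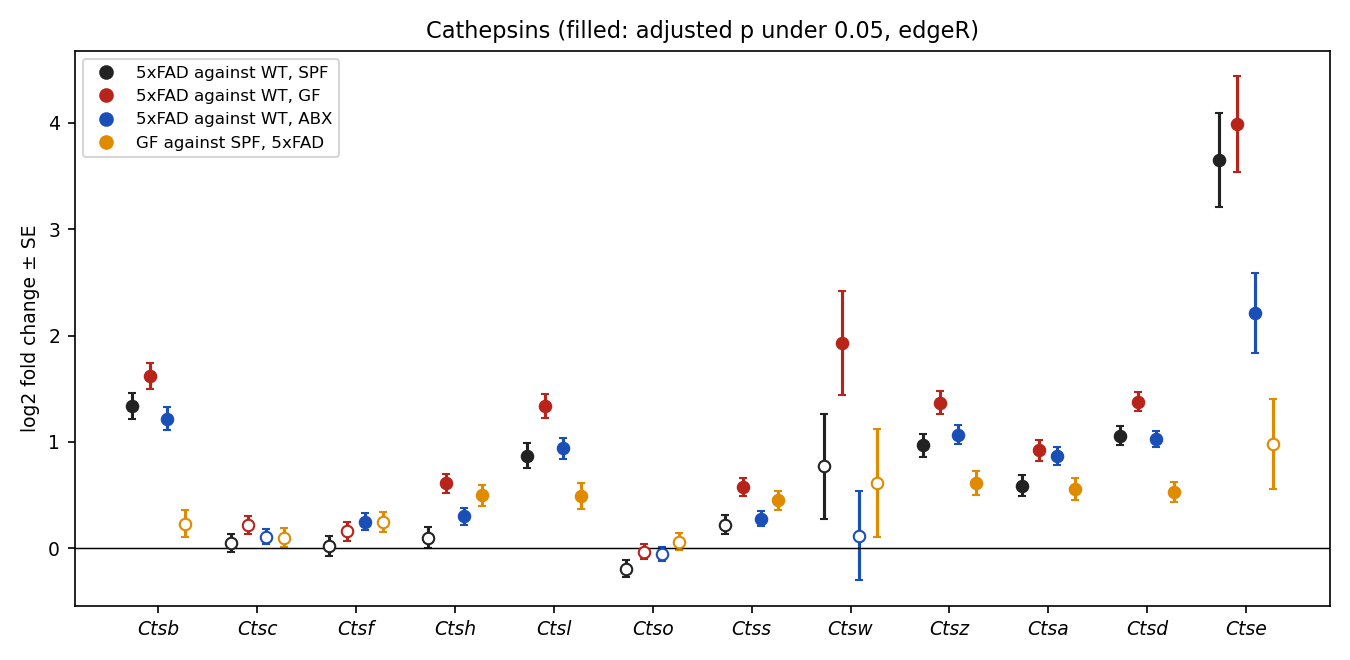
Log2 fold changes ± SE (vertical axis) of the 9 tested cysteine cathepsins and of *Ctsa*, *Ctsd* and *Ctse* (horizontal axis) for 5xFAD against WT mice under SPF, GF and ABX conditions and for GF against SPF 5xFAD mice. Filled points passed edgeR's test at an adjusted p under 0.05, which *Ctsb*, *Ctsl*, *Ctsz*, *Ctsa*, *Ctsd* and *Ctse* did in all 3 genotype comparisons.

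Summed over the list, the 10 cysteine cathepsins reached 28226 ± 1327 TPM in SPF WT (SD, n = 5) and 37819 ± 2484 TPM in SPF 5xFAD mice (SD, n = 3), 28889 ± 1380.1 and 44096 ± 2141 TPM in GF mice (n = 4 and 5), and 28080 ± 1145.8 and 37850 ± 2131 TPM in ABX mice (n = 5 and 6). The summed TPM of *Cst3*, *Cst7* and *Cstb* divided by that of the cathepsins was 2.4 ± 0.193 in SPF WT, 2.47 ± 0.301 in GF WT and 2.51 ± 0.166 in ABX WT mice. In 5xFAD mice it was 1.7 ± 0.0643 under SPF, 1.68 ± 0.0481 under GF and 1.66 ± 0.198 under ABX conditions (SD). The highest 5xFAD library had a ratio of 1.83 and the lowest WT library 2.02, so the genotypes did not overlap on this measure of RNA. *Lgmn* TPM over the same sum of cathepsins was 0.203 to 0.234 in WT groups and 0.108 to 0.142 in 5xFAD groups.

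Among the aspartic and serine cathepsins, *Ctsd* (cathepsin D), *Ctsa* (cathepsin A) and *Ctse* (cathepsin E) rose in 5xFAD mice in all 3 conditions. *Ctsd* went from 9683 ± 479 to 20163 ± 1633 CPM under SPF conditions (SD, n = 5 and 3), with a log2 change of 1.06 ± 0.0886 (adjusted p = 7.83e-10, edgeR), and rose by 1.38 ± 0.0859 under GF and by 1.03 ± 0.0765 under ABX conditions (adjusted p = 1.65e-12 and 5.62e-11). *Ctse* went from 0.896 ± 0.583 to 11.3 ± 1.99 CPM under SPF conditions (3.65 ± 0.439, adjusted p = 8.26e-07). *Ctsa* rose by 0.59 ± 0.101 under SPF conditions (adjusted p = 0.000203). *Ctsg*, a protease of neutrophils, had no read in any library. *Ctsd* and *Ctsa* were also higher in GF than in SPF 5xFAD mice (0.53 ± 0.0919 and 0.56 ± 0.104, adjusted p = 0.00131 and 0.00171), and *Ctsa*, *Ctsd* and *Ctse* were lower in ABX than in GF 5xFAD mice. In WT mice, too, *Ctsa* and *Ctsd* were lower in ABX than in GF mice (-0.40 ± 0.0936 and -0.27 ± 0.0828, adjusted p = 0.00999 and 0.0486, edgeR).

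*Pigk*, which encodes the legumain-family protease of the GPI transamidase, had 133 ± 5.91 CPM in SPF WT (SD, n = 5) and 136 ± 14.5 CPM in SPF 5xFAD mice (SD, n = 3). It passed the test in 1 comparison, 5xFAD against WT mice under ABX conditions (0.24 ± 0.0753, adjusted p = 0.0276, edgeR), and in 29 of 36 alternatives, with the highest adjusted p, 0.125, under library-size scaling. Of the 5 genes for the mannose 6-phosphate tag that sends proteases to lysosomes, *Gnptab* and *Gnptg*, subunits of the enzyme that adds the tag, rose in all 3 genotype comparisons, from 31.5 ± 4.5 to 70.1 ± 1.12 CPM and from 51.7 ± 4.37 to 70.8 ± 2.07 CPM under SPF conditions (SD, n = 5 and 3, adjusted p = 0.00171 and 0.0255). The *Gnptg* call under SPF conditions held in 31 of 36 alternatives and had an adjusted p of 0.121 without mouse FAD_SPF_1144. *Nagpa*, which uncovers the tag, passed under ABX conditions (0.49 ± 0.11, adjusted p = 0.00223). *M6pr*, a receptor of the tag, passed in none of the 3 genotype comparisons, with an adjusted p of 0.0517 under GF conditions that was under 0.05 in 14 of 36 alternatives. *Igf2r*, the other receptor, fell in GF 5xFAD mice (adjusted p = 0.0322, edgeR) at no more than 2.25 CPM in any GF mouse, and passed in 27 of 34 alternatives, with an adjusted p of 0.187 by limma's voomWithQualityWeights. Of the 4 MiT/TFE transcription factors, which drive lysosomal genes, 1 passed in 1 genotype comparison: *Tfe3* fell by 0.27 ± 0.091 in log2 terms in GF mice (SE, adjusted p = 0.0434), from 269 ± 8.74 CPM in WT (SD, n = 4) to 223 ± 20.7 CPM in 5xFAD mice (SD, n = 5). That call did not hold in 11 of 36 alternatives.

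The 4 genes did not vary together as 1 group. Over the 28 libraries, Pearson's r of log2 CPM was 0.80 for *Cst7* and *Cstb*, 0.70 for *Cst3* and *Cstb*, 0.20 for *Cst7* and *Cst3*, 0.35 for *Cst3* and *Lgmn*, -0.03 for *Cstb* and *Lgmn* and -0.36 for *Cst7* and *Lgmn*. These values are descriptions, since the libraries share groups. After the group means were removed, r was 0.85 for *Cst3* and *Cstb*, 0.50 for *Cst7* and *Cstb*, 0.42 for *Cst3* and *Lgmn*, 0.33 for *Cst7* and *Cst3*, 0.28 for *Cstb* and *Lgmn* and -0.07 for *Cst7* and *Lgmn*, with points that share library and depth. Mouse FAD_ABX_1482 deviated from its group in *Cst3* and *Cstb* by 0.318 and 0.615 on the log2 scale, mouse WT_GF_199 by -0.45 and -0.441, and mouse FAD_ABX_1151, whose library held neutrophil markers, by -0.291 and -0.541.

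**Figure D5:**
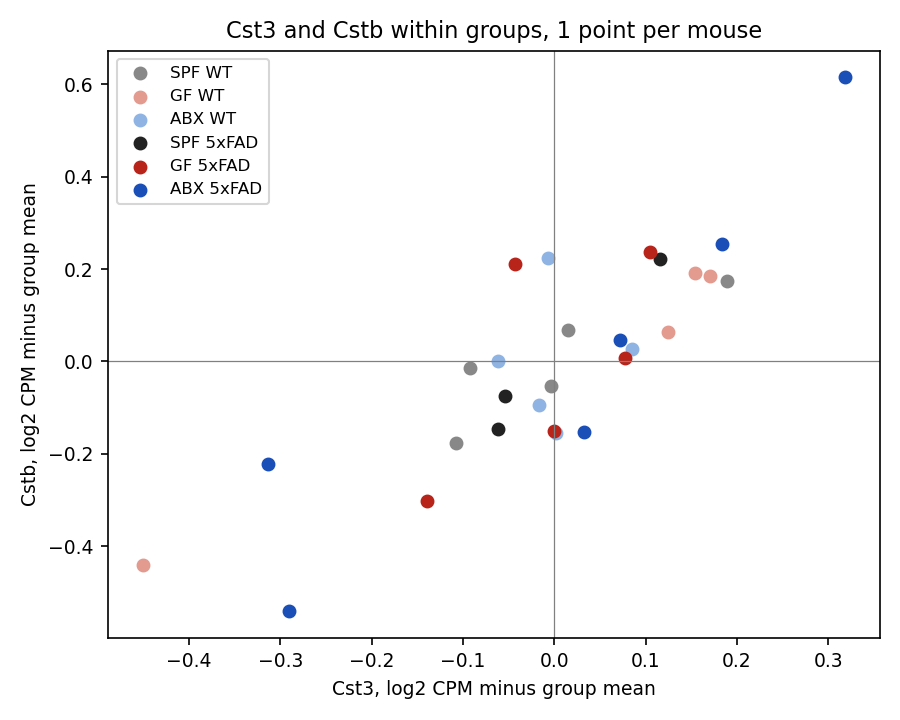
Deviation of *Cstb* (vertical axis) against that of *Cst3* (horizontal axis) from their group means, in log2 CPM, with 1 point per mouse and colours for groups. Both genes deviate in the same direction in most mice, with Pearson's r of 0.85 over 28 libraries, and *Cstb* spans from -0.541 to 0.615.

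The genes most like each member were taken among 8926 genes with an average log2 CPM of at least 3, by Pearson's r of log2 CPM over the 28 libraries. *Cst7* was most like *Clec7a*, a pattern recognition receptor, *Ank*, a pyrophosphate transporter, and *Lpl*, lipoprotein lipase, each with r = 0.99, which fell to 0.69, 0.49 and 0.54 when group means were removed. *Cst3* was most like *Psmb2* (r = 0.90), *Mrpl41* (r = 0.87) and *Psma7* (r = 0.87), the genes of 2 proteasome subunits and of a mitochondrial ribosomal protein. *Cstb* was most like *Cox4i1*, a subunit of cytochrome c oxidase (r = 0.98), *Fth1*, the ferritin heavy chain (r = 0.97), and *Sh3bgrl3* (r = 0.97). *Lgmn* was most like *Arrdc1* (r = 0.83), *Myd88*, an adaptor of Toll-like receptors (r = 0.80), and *Rbfa* (r = 0.80). For *Cst3* and *Cstb* the likeness was nearly as close within groups, with r between 0.86 and 0.92, and for *Lgmn* it lay between 0.68 and 0.78.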

How the data were processed

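RNA-seq was made from sorted hippocampal microglia of 28 mice, 3 to 6 per group, with a SMARTer Ultra Low Input and Nextera XT library that does not mark strand and single reads. The authors deposited unnormalized read counts by gene, which they made with STAR and featureCounts against GRCm38 and GENCODE. The submitters' processing notes name STAR 2.7.2, featureCounts 1.6.2 and the build GRCh38.p12, a human build, although the table holds mouse genes. The table's gene lengths, a score in bases per the file headers, gave TPM, which carry no TMM scaling. Totals were 14441610 to 29977395 counts, and the 92 spike-in entries, at most 6.41e-05 percent of a library, were set aside.

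All 15298 genes kept by filterByExpr (minimum count 10, minimum total 15) were fitted in edgeR 4.0.16 (R 4.3.3) with TMM scaling, the quasi-likelihood test, 1 term per group and Benjamini-Hochberg adjustment over all genes at 0.05. The methods of the study use limma's voomWithQualityWeights. It was run here in limma 3.58.1 as an alternative, as were DESeq2 1.42.0, other scalings and filters, and fits of only the groups compared. Further alternatives were 26 mice without FAD_ABX_1151 and FAD_ABX_1482, and leaving out each mouse. Log2 CPM for correlations used a prior count of 2. The fit was tested on simulated data. Replicates differed by more than counting noise (lowest chi-square per degree of freedom 6.92), and labels give a separate mouse for each library.

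The 4 genes, the lists and the set of 26 mice were chosen with earlier results of these data known. Named genes were the 4 members, up to 3 called genes with the largest change per list and comparison, cysteine cathepsins over 100 CPM, the 3 genes most like each member, and markers. *M6pr*, *Kng2*, *Cst6* and *Ctsg* were named in addition, after their values were seen. Mouse FAD_GF_201 carries labels of both genotypes and was grouped by its title. Promoters came from RefSeq on GRCm38.p6 and positions from the table. Protein sequences and a promoter of *Cstb* were not used here.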

Additional observations from a re-analysis of the deposited data

Results flagged for a closer look

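Of the 20 sets of 4 to 6 mice in which the highest or lowest value was compared with the others, 2 held a mouse that stood apart, and chance gives about 1 in 20. *Cst3* in mouse WT_GF_199 was 20861.5 CPM, and its gap to the next of the 4 GF WT mice was 0.912 of their range. *Lgmn* in mouse WT_SPF_925 was 5595.6 CPM, above the other 4 SPF WT mice by 0.717 of their range. *Cstb* was also lowest of its group in mouse WT_GF_199, at 37.7 CPM. Without mouse WT_SPF_925, the log2 fold change of *Lgmn* for 5xFAD against WT mice under SPF conditions was -0.55 in place of -0.62.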

How the results depend on the processing

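The log2 fold changes of the 4 genes were recomputed under 36 alternatives, and 1723 of 1728 values moved by less than the spread between mice. The 5 others were of *Cst7* without mouse WT_GF_230. The sign changed in 26 of the 1728 rounded values, none of them in a comparison with a log2 fold change over 0.35 in size. This count leaves out *Lgmn* between GF and SPF WT mice, whose rounded value of -0.00 has no sign and ranged from -0.03 to 0.06. Leaving out each mouse in turn gave *Cst7* 6.91 to 7.51 for 5xFAD against WT mice under GF conditions, -0.07 to 0.53 between GF and SPF WT mice, -0.44 to 0.17 between ABX and GF WT mice, 0.39 to 0.98 for the difference between the 5xFAD effects of GF and SPF mice, and -1.16 to -0.56 for that of ABX and GF mice. No paired analysis was possible because the numbers in the labels are those of single mice and no number occurs in 2 groups.

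Counts of called genes depended more on the method, and for most of them the cause was not tested. DESeq2 called 8 genes between ABX and SPF 5xFAD, 707 between GF and SPF WT, 2 between ABX and SPF WT and 1606 between ABX and GF WT mice. For the differences between 5xFAD effects it called 25 (GF and SPF), 1 (ABX and SPF) and 576 (ABX and GF). voomWithQualityWeights called 2154 for 5xFAD against WT mice under SPF conditions, with 5 cysteine cathepsins in place of 3, 3872 between GF and SPF 5xFAD, 134 between ABX and SPF 5xFAD, 1631 between GF and SPF WT and 2025 between ABX and GF WT mice. For the differences of GF from SPF and of ABX from SPF effects it called 116 and 14. With fits of only the groups compared, the counts were 1340 and 1321 for 5xFAD against WT mice under SPF and ABX conditions, 251 between ABX and GF 5xFAD mice, with 2 cysteine cathepsins in place of 5, 1286 between GF and SPF WT mice, and 1 and 67 for the differences of GF from SPF and of ABX from GF effects. In the set of 26 mice, 36 genes were called between ABX and SPF 5xFAD mice, 659 between GF and SPF WT mice, and 3 and 1 for the differences of GF and of ABX from SPF effects. Without the low-count filter 2 genes were called for the difference of GF from SPF effects.

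Leaving out 1 mouse at a time, which also leaves fewer samples, gave 437 (without FAD_SPF_1144) to 812 called genes for 5xFAD against WT mice under SPF conditions and 547 (without FAD_SPF_1148; 680 without FAD_SPF_1146) to 2320 between GF and SPF 5xFAD mice. It gave 0 to 59 (without FAD_ABX_1151) between ABX and SPF 5xFAD mice and 980 (without FAD_ABX_1151) to 2497 (without FAD_ABX_1482) between ABX and GF 5xFAD mice. Between WT groups the ranges were 54 (without WT_GF_229) to 447 for GF against SPF, 0 to 1 for ABX against SPF and 446 (without WT_GF_229) to 1327 for ABX against GF mice. For the differences between 5xFAD effects they were 0 to 8 (without FAD_GF_201) for GF from SPF, 0 to 1 for ABX from SPF and 85 (without WT_GF_229) to 491 (without FAD_GF_201) for ABX from GF mice.

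Scaling by library size alone moved the median of all genes by -0.125 on the log2 scale for 5xFAD against WT mice under GF conditions and by less than 0.1 elsewhere, and gave 1107 higher and 1919 lower genes there in place of 1442 and 949. In the same way it gave 533 and 215 (in place of 571 and 128) under SPF and 1160 and 1311 (1445 and 762) under ABX conditions, 626 and 1295 (1066 and 896) between GF and SPF 5xFAD, 1173 and 554 (692 and 929) between ABX and GF 5xFAD, 441 and 545 (367 and 686) between ABX and GF WT mice, and 209 and 69 (140 and 129) for the difference of ABX from GF effects. Depth did not limit the 4 genes, the least abundant of which, *Cst7* in WT mice, had at least 91 reads per library.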
